A study of Mus musculus with 38 samples.

Results

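The immunoproteasome and the loading of peptides onto MHC class I molecules were examined in mouse kidney through 10 genes, the rows with these symbols among the 55487 genes of the count table. They are Psmb8, Psmb9, Psmb10, Psme1, Psme2, Tap1, Tap2, Tapbp, B2m and Nlrc5, and all 10 passed the filter on low counts in each of the 3 experiments. The genes were chosen by their known role and with results of this series in view, taken here to be the measured levels in anti-GBM kidneys after FGF23, so the FGF23 comparison in anti-GBM disease and the interaction that contains it are given as description without a test. In the first experiment, male C57BL/6JRj mice, 8 weeks old at the start and 10 weeks at the end, received sheep IgG in adjuvant and then nephrotoxic serum against the glomerular basement membrane (anti-GBM disease), and the healthy controls received PBS in place of the induction. Both were given recombinant human FGF23 by vein, 1 µg in each of 6 daily injections over 6 days, or vehicle, which made 4 healthy mice with vehicle, 4 anti-GBM mice with vehicle, 3 healthy mice with FGF23 and 3 anti-GBM mice with FGF23. These sizes are those of the labels. The study's captions instead give 3 mice for anti-GBM groups and 4 for healthy groups in RNA-Seq. In the second, female BALB/c mice of the same ages carried Adriamycin nephropathy, a podocyte injury set off by intravenous Adriamycin, or stayed healthy, and their kidneys were removed 24 h after 1 injection of vehicle or of 1 µg FGF23, with 4 mice in each of 4 groups. In the third, precision-cut kidney slices (PCKS) came from male DBA/2J mice fed 0.2% adenine for 15 weeks, from 8 to 23 weeks of age, and were cultured with 200 ng/mL FGF23 or vehicle, 4 cultures each. The labels give 1 h for the slices whereas the methods text gives another duration, and no slices from disease-free mice were made. A fragment of the renal pars intermedia was taken from the mice, so a library holds every cell type of that fragment, and fewer cells of a type and less RNA per cell cannot be told apart.

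The proteasome degrades cytosolic proteins into peptides with the catalytic subunits of its core particle. Under interferon, cells replace the constitutive catalytic subunits Psmb6, Psmb7 and Psmb5 by Psmb9, Psmb10 and Psmb8, which makes the immunoproteasome, and add the PA28 cap of Psme1 and Psme2, which opens the core particle. The peptides are pumped into the endoplasmic reticulum by the TAP transporter, a heterodimer of Tap1 and Tap2, and tapasin (Tapbp) holds the transporter next to the empty class I molecule, whose light chain is beta-2 microglobulin (B2m). Nlrc5 is the transactivator that acts at the promoters of class I genes and of several of the genes above. Leukocytes carry the immunoproteasome without stimulation, whereas renal tubular cells mostly carry the constitutive form.

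In the mouse genome (GRCm38), 5 of the genes lie in the MHC region of chromosome 17: Tapbp at chr17:33915899-33929292, Psmb9 at chr17:34181987-34187764, Tap1 at chr17:34187553-34197225, Psmb8 at chr17:34197721-34201454 and Tap2 at chr17:34203527-34216321. Psmb9 is on the minus strand and the other 4 are on the plus strand, so that Psmb9 and Tap1 face away from each other. Their annotated exons share 212 bases on opposite strands. The library kit keeps strand, but whether the reads were counted by strand is not given in the sources used here, so a small part of the reads of either gene may belong to the other. Psmb8 shares 498 exonic bases with the antisense gene Gm20496, and Tapbp shares 904 with the antisense gene Gm19412. Tap2 shares 533 with Gm15821 and 165 with Gm20496, both on the opposite strand. Nlrc5 shares 78 with 9330175E14Rik and Psme1 14 with Emc9, also on opposite strands. Tapbp further shares 149 bases with Zbtb22 on the same strand, which counting by strand would not separate. Outside the MHC, Psme1 (chr14:55578123-55581529) and Psme2 (chr14:55587441-55591113) are close neighbours on opposite strands, Psmb10 (chr8:105935735-105938444) and Nlrc5 (chr8:94434356-94527272) share chromosome 8, and B2m is at chr2:122147686-122153083.

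RefSeq promoter sequences, 250 bases before to 50 bases after a start site in GRCm38.p6, were at hand for 8 of the 10 genes, in 9 windows, and for neither Tap2 nor Nlrc5. They were searched on both strands for the interferon-stimulated response element core GAAANNGAAA, the gamma-activated site TTCNNNGAA, and the NF-kappaB consensus, which occur in 3.44%, 8.3% and 8.46% of the 32851 promoter windows of that length and any of the 3 in 18.9%. The sequences that hold a match are shown because interferon and NF-kappaB act on these genes through such elements, with the matching bases in capitals. The B2m window holds the interferon element 139 bases and the NF-kappaB element 126 bases before the start, and is shown up to its annotated exon (chr2:122147437-122147685, plus strand).
B2m: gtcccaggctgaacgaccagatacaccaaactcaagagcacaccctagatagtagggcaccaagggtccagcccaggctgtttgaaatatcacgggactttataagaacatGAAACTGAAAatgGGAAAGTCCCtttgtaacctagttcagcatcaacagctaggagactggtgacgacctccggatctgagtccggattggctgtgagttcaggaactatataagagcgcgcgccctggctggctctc
The Psmb8 window holds a gamma-activated site 97 bases before the RefSeq start, shown with its flanks (chr17:34198088-34198117, plus strand), and that site lies inside the first exon of a longer annotated transcript.
Psmb8: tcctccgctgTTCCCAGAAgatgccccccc
The Psme1 window holds the interferon element on the minus strand 10 bases after the start (chr14:55578493-55578522, plus strand shown).
Psme1: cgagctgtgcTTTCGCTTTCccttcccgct
The windows of Psmb9, Psmb10, Psme2, Tap1 and Tapbp did not hold these letters, which says nothing about elements written differently or placed elsewhere.

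Across the 38 libraries, total counts ran from 13704248 to 23630210 with anti-GBM disease and its controls, from 15665050 to 27583911 for the Adriamycin mice and their controls, and from 11186925 to 16254987 for the slices. A gene of the set had between 56 and 13862 counts in a library. Levels are counts per 1000000 counts (CPM) after TMM scaling within an experiment. Tests are edgeR's quasi-likelihood test over 15859, 16020 and 15090 genes, with Benjamini-Hochberg adjustment over all genes of a comparison and a call at an adjusted p below 0.05. The summed level of 6 kidney markers (Slc34a1, Lrp2, Umod, Slc12a3, Aqp2 and Nphs1) was 9871 to 15224 CPM in the kidneys and 1962 to 6449.9 CPM in the slices, so the labelled tissue was found in all, at lower level in the slices. Levels in different experiments stand side by side only, because strain, sex and handling differ between them and because BALB/c and DBA/2J carry other MHC haplotypes than the C57BL/6J reference genome, whose part in the counts was not tested.

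In healthy C57BL/6JRj kidneys with vehicle, the 10 genes spanned a wide range of abundance. Per kilobase of the principal transcript, the light chain B2m was highest at 275 ± 29.5 CPM per kb (SD, n = 4), followed by the PA28 subunits Psme1 at 41.5 ± 1.51 and Psme2 at 33.9 ± 1.06 and by tapasin at 32.6 ± 0.917. The catalytic subunits and the transporter were lower, with Psmb10 at 8.88 ± 0.549, Tap2 at 7.75 ± 0.779, Psmb8 at 7.50 ± 0.433, Tap1 at 5.31 ± 0.828 and Psmb9 at 4.62 ± 0.753 CPM per kb. Nlrc5 was lowest at 0.912 ± 0.257 CPM per kb. Neighbours such as Psme2 and Tapbp, Tap2 and Psmb8, and Tap1 and Psmb9 did not differ beyond their spread over mice, whereas B2m and Nlrc5 stood clear of all others. Healthy BALB/c kidneys had B2m at 263 ± 12.7, Psme1 at 57.2 ± 1.81 and Nlrc5 at 0.531 ± 0.0947 CPM per kb, with the same genes at both ends of the order. The vehicle slices of adenine-fed DBA/2J mice had B2m at 1064 ± 106, Psmb8 at 56.2 ± 1.76 and Tap1 at 32.2 ± 1.63 CPM per kb, and there Psmb8 and Tap1 ranked above Tap2 and Psmb10.

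Most of the machinery was higher in anti-GBM disease without FGF23. In mice given vehicle, 9 of the 10 genes were higher in anti-GBM than in healthy kidneys by edgeR's test, where 19.4% of all genes tested were called higher and 39.8% in either direction. The median log2 fold change of the 10 genes was 0.62, against -0.01 over all genes. Nlrc5 was the gene that did not pass. This result was known when the genes were chosen, so the adjusted p values below are a description and no independent support for them. The anti-GBM mice given vehicle also stand in the FGF23 comparison.

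All 3 catalytic subunits rose. Psmb8, the beta5i subunit with chymotrypsin-like activity, had 11.5, 11.7, 12.6 and 13 CPM in the 4 healthy mice and 21.7, 24.3, 22 and 24.3 CPM in the 4 anti-GBM mice. All anti-GBM mice were high and close together, and the log2 fold change was 0.92 (SE 0.09) with an edgeR adjusted p of 8.69e-06. Psmb10, the beta2i subunit with trypsin-like activity, had 11.7, 10.6, 12.3 and 11.9 CPM in healthy and 13.7, 21.5, 23.4 and 22.3 CPM in anti-GBM mice. Mouse NTS5 was the low one of the diseased group, and Psmb10 rose by 0.79 (SE 0.14) on the log2 scale (edgeR adjusted p = 0.000617). Psmb9, the beta1i subunit, had 5.83, 5.04, 6.74 and 7.35 CPM in healthy and 8.69, 10.2, 8.48 and 7.56 CPM in anti-GBM mice. The closest healthy and diseased mice nearly met, the log2 fold change was 0.49 (SE 0.16) and the edgeR adjusted p 0.023. Without mouse NTS2 or without NTS6 the Psmb9 call was lost (adjusted p up to 0.0689) and 8 genes remained.

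The PA28 activator and the peptide transporter rose to a similar degree. Psme1 had 48, 44.8, 47.1 and 44.7 CPM in healthy and 62.5, 74.1, 65.8 and 78.8 CPM in anti-GBM mice, a log2 fold change of 0.61 (SE 0.073) with an edgeR adjusted p of 4.45e-05. Its partner Psme2 had 32.3, 33.3, 33.6 and 31.3 CPM in healthy and 39.8, 47, 47 and 56.9 CPM in anti-GBM mice (log2 fold change 0.55 (SE 0.095), edgeR adjusted p = 0.000584). For both subunits the diseased mice were all high and spread more widely than the healthy mice. Tap1, one chain of the transporter, had 13.6, 13.6, 17.3 and 18.2 CPM in healthy and 21.5, 24.1, 22.3 and 20.6 CPM in anti-GBM mice (log2 fold change 0.50 (SE 0.12), edgeR adjusted p = 0.00451). Tap2, the other chain, had 28, 22.7, 27.6 and 28.4 CPM and 38.8, 44.1, 43.1 and 39.7 CPM (log2 fold change 0.64 (SE 0.083), edgeR adjusted p = 7.7e-05). Neither chain overlapped between the groups, in a comparison where 19.4% of all genes were called higher. The share of all genes without overlap is not given here.

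By point estimate the class I light chain changed most and the transactivator least, with 95% intervals that overlapped those of other genes of the set. B2m had 209.6, 221, 262 and 255 CPM in healthy and 433, 459, 547 and 501 CPM in anti-GBM mice, and its log2 fold change of 1.04 (SE 0.11) (edgeR adjusted p = 1.78e-05) was the largest of the 10. Tapbp had 92.6, 93.2, 98.4 and 93.8 CPM in healthy and 130.2, 154, 162 and 156 CPM in anti-GBM mice, a log2 fold change of 0.67 (SE 0.075) (edgeR adjusted p = 2.57e-05). Both were high in every diseased mouse. Nlrc5 had 4.92, 5.56, 8.49 and 8.68 CPM in healthy and 8.23, 9.52, 9.40 and 6.62 CPM in anti-GBM mice. The groups overlapped, and the log2 fold change of 0.30 (SE 0.21) did not pass (edgeR adjusted p = 0.288), with a 95% interval of -0.16 to 0.75.

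**Figure D1:**
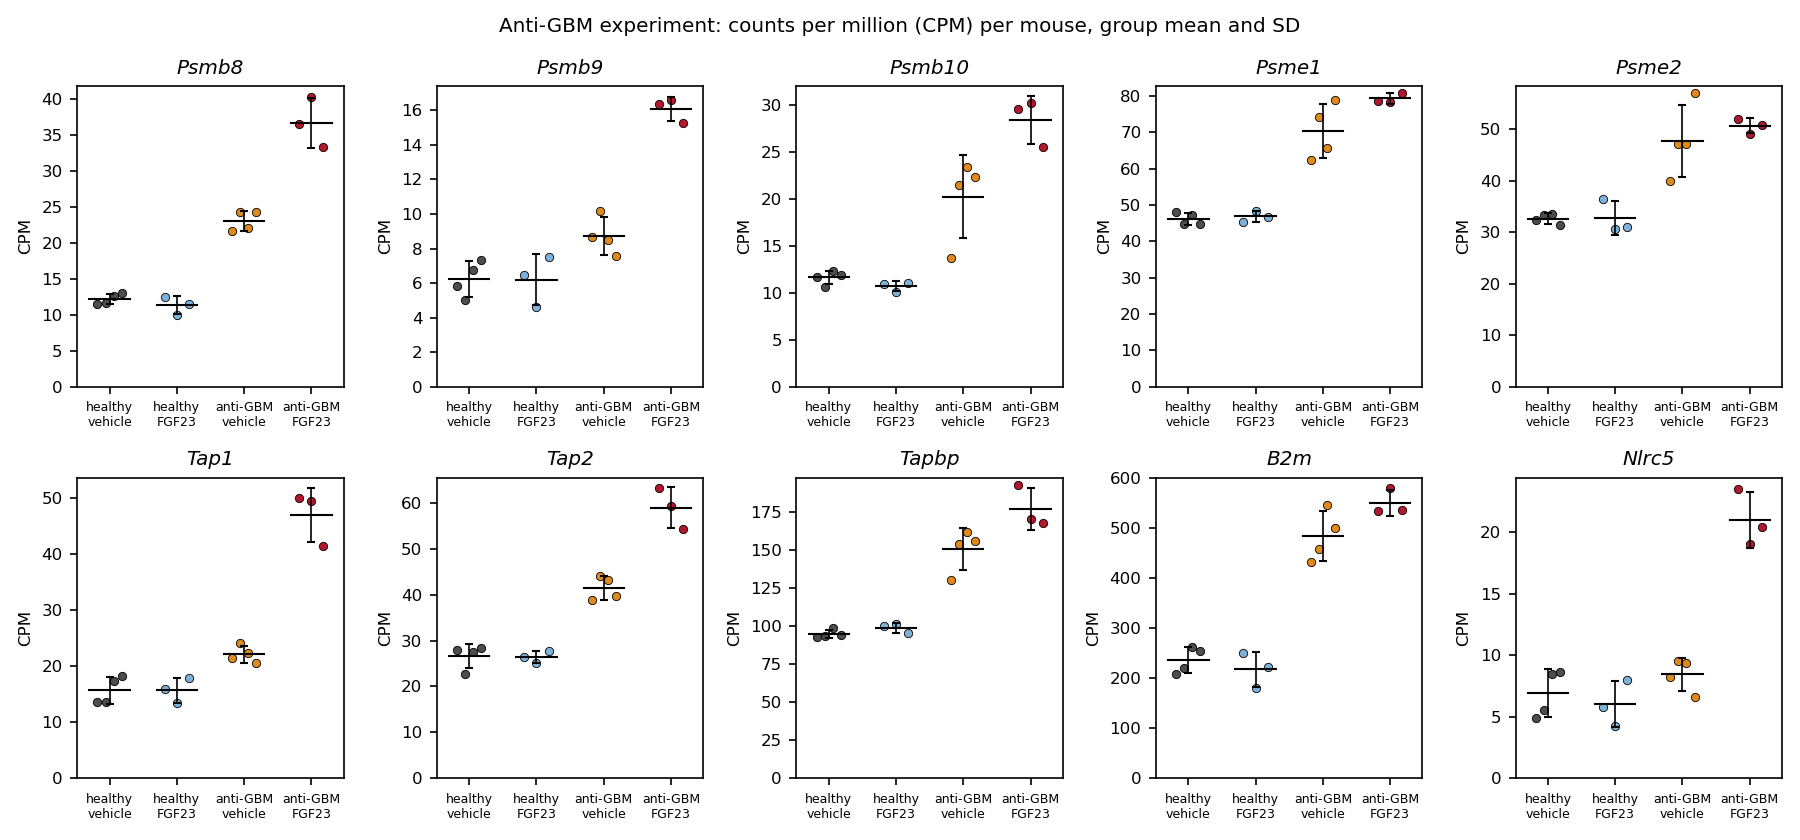
Level of each gene in CPM (vertical axis, own linear scale per panel) in the 4 groups of the anti-GBM experiment, one point per mouse and a bar at the mean with its SD. The anti-GBM groups sit above the healthy groups for 9 genes with vehicle. For Nlrc5 the anti-GBM mice given FGF23, at 19.1 to 23.5 CPM, sit above the overlapping vehicle groups. Healthy mice given FGF23 were at 4.28 to 8.01 CPM.

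The plot of the individual mice shows a second step on top of the first in the anti-GBM mice given FGF23, described here without a test because the genes were chosen with it known. Of the 10 genes, 5 were among those called by edgeR against anti-GBM mice given vehicle (Psmb8, Psmb9, Tap1, Tap2 and Nlrc5), where 0.233% of all genes tested were called higher and 0.240% in either direction. As the genes were chosen with this comparison known, setting those 5 calls beside that share is no test of the genes. For 7 genes, those 5 with Psmb10 and Tapbp, all FGF23 mice lay above all vehicle mice, as did 5.11% of all genes in that direction. Nlrc5 had 23.5, 19.1 and 20.4 CPM in the 3 mice given FGF23, a log2 fold change of 1.31 (SE 0.22) over vehicle. Tap1 had 49.97, 49.4 and 41.4 CPM, a log2 fold change of 1.08 (SE 0.12). Psmb9 had 16.4, 16.6 and 15.3 CPM (0.88 (SE 0.16)). These 3 genes had the largest differences of the 10, and none of their values met those of the vehicle mice.

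Psmb8 had 36.6, 40.3 and 33.4 CPM with FGF23, a log2 fold change of 0.67 (SE 0.093) over anti-GBM vehicle. Tap2 had 63.2, 59.4 and 54.3 CPM (0.51 (SE 0.087)), and Psmb10 had 29.6, 30.2 and 25.5 CPM (0.49 (SE 0.14)). Each of these 3 genes was clear of its vehicle group in all mice. The remaining genes differed less. Tapbp had 192, 170.1 and 167 CPM (0.23 (SE 0.081)), and B2m had 534, 582 and 536 CPM (0.18 (SE 0.12)). Psme1 had 78.7, 78.3 and 80.9 CPM (0.17 (SE 0.078)), and Psme2 had 52, 49.1 and 50.8 CPM (0.088 (SE 0.10)). B2m, Psme1 and Psme2 overlapped with the vehicle mice, so that the transactivator, the transporter and the catalytic subunits had larger differences than the activator and the light chain. The count of 5 fell to 2 when any of mice NTS5, NTS8, NTS13 or NTS14 was left out, and Tap1 and Psmb8 were called in all 7 such fits. The fits reuse the mice with which the genes were chosen. They show how far the count rests on single mice and are no support for the genes.

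In healthy C57BL/6JRj mice the same 6 injections of FGF23 left no call. No gene of the 10, and 0% of all genes tested, passed edgeR's test, and 0 of the 10 had an unadjusted p below 0.05. Nlrc5 had 5.82, 4.28 and 8.01 CPM in the 3 healthy mice given FGF23 and Tap1 had 16, 13.4 and 17.8 CPM. Psmb8 had 12.5, 10.1 and 11.5 CPM and B2m had 250.2, 181 and 223 CPM. All of these overlapped with healthy mice given vehicle, and mouse NTS10 was the lowest of the group for these 4 genes. The log2 fold changes ran from -0.21 for Nlrc5 to 0.063 for Tapbp with a median of -0.01, as over all genes. Their 95% intervals reached from -0.71 (Nlrc5) to 0.35 (Psmb9) and bound what these 7 mice could show. The difference between the FGF23 effects in anti-GBM and healthy mice, the interaction, is likewise description only: it was positive for all 10 genes with a median of 0.57, from 1.52 (SE 0.32) for Nlrc5 and 1.08 (SE 0.18) for Tap1 to 0.086 (SE 0.14) for Psme2. None of the 10 and 0.0315% of all genes were called in it by edgeR, whereas DESeq2, and edgeR with no filter on low counts, each called 3 of the 10 (Nlrc5, Tap1 and Psmb8).

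Disease against health among mice given FGF23 shares its samples with the comparisons above and includes the anti-GBM mice given FGF23, so it is set beside them as description. All 10 genes were called higher, where 14.5% of all genes were (27.2% in either direction), with a median log2 fold change of 1.36. Nlrc5 differed by 1.81 (SE 0.24) in this comparison and by 0.30 with vehicle. Psmb8 differed by 1.70 (SE 0.10) and 0.92, Tap1 by 1.58 (SE 0.14) and 0.50, and Psmb9 by 1.38 (SE 0.18) and 0.49. For the PA28 subunits the pair of values was close, at 0.76 (SE 0.084) and 0.61 for Psme1 and at 0.63 (SE 0.11) and 0.55 for Psme2.

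**Figure D2:**
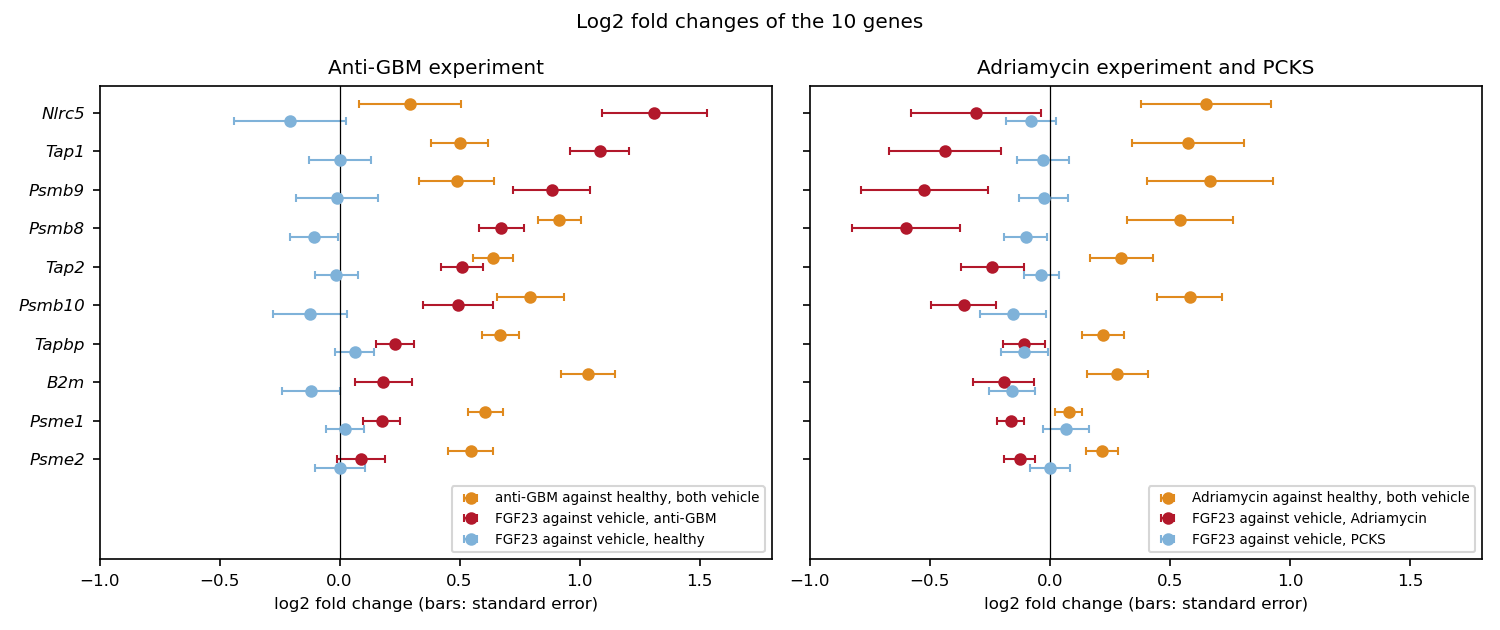
Log2 fold change of each gene (horizontal axis, bars are standard errors), left for the anti-GBM experiment and right for the Adriamycin experiment and PCKS, with the comparisons in colours. On the left the FGF23 values in anti-GBM run from 0.09 for Psme2 to 1.31 for Nlrc5, and on the right all 10 FGF23 values in Adriamycin are below 0.

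Fold changes by comparison, as drawn for each gene, can be set beside the other parts of the same machinery. The constitutive catalytic subunits, which share their place in the core particle with the immuno-subunits, gave 0 calls in anti-GBM disease with vehicle, where 39.8% of all genes were called and 19.4% were higher: Psmb5 (log2 fold change 0.22 (SE 0.11)), Psmb6 (0.19 (SE 0.09)) and Psmb7 (-0.041 (SE 0.092)). In the FGF23 comparison in anti-GBM mice they had -0.19, -0.21 and -0.18, again with 0 calls. Of the 11 other subunits of the core particle, 2 rose in anti-GBM disease with vehicle (Psma7 by 0.28 and Psmb2 by 0.31). Of 18 subunits of the 19S cap, 2 rose (Psmd8 by 0.37, Psmd4 by 0.22) and 2 fell (Psmc6 at -0.27, Psmd1 at -0.20). In the FGF23 comparison in anti-GBM mice none of these was called, and 0 of the 11 and 0 of the 18 had a log2 fold change above 0. The share of all genes below 0 there is not given here, so the direction is not read as particular to these subunits.

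The share of each immuno-subunit in its pair, per kilobase of transcript, gives the same levels on another scale. Psmb8 made up 9.73% ± 1.03 (SD, n = 4) of Psmb8 and Psmb5 together in healthy kidneys with vehicle and 15% ± 1.46 (n = 4) in anti-GBM kidneys with vehicle. With FGF23 the share was 8.62% ± 0.396 (n = 3) in healthy and 24.1% ± 2.93 (n = 3) in anti-GBM kidneys. Psmb10 of Psmb10 and Psmb7 followed the same order, at 9.02% ± 1.04, 15% ± 3.44, 8.10% ± 0.291 and 21.9% ± 2.72. Psmb9 of Psmb9 and Psmb6 was lower throughout, at 3.77% ± 0.688, 4.62% ± 0.844, 3.72% ± 1.05 and 9.29% ± 0.929. The constitutive subunit was the larger part of each pair in every kidney group. In the vehicle slices the Psmb8 share was 62.3% ± 1.49 (n = 4), while Psmb9 and Psmb10 shares were 13.2% ± 0.735 and 23.4% ± 2.78. Shares depend on the transcript length used, and changes of the pair ratio do not. The joined length of all annotated exons (exon union) of Psmb8 is 3381 bases against 1628 for its principal transcript. For Psmb5 both lengths are 899 bases. By exon union length Psmb8 was the smaller part of its pair in the vehicle slices, so its majority there rests on the length chosen. Between anti-GBM and healthy mice with vehicle the log2 ratio differed by 0.71 for Psmb8 over Psmb5 and by 0.81 for Psmb10 over Psmb7 (both exact two-sided permutation p = 0.0286, the smallest that 4 against 4 allows, adjusted p = 0.257 over 18 ratio tests), and by 0.30 for Psmb9 over Psmb6 (exact p = 0.229, adjusted p = 0.458). With groups of this size, a single ratio at the smallest p does not reach an adjusted p below 0.05 over 18 tests, so the adjusted values say nothing about whether the ratios were stable.

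**Figure D3:**
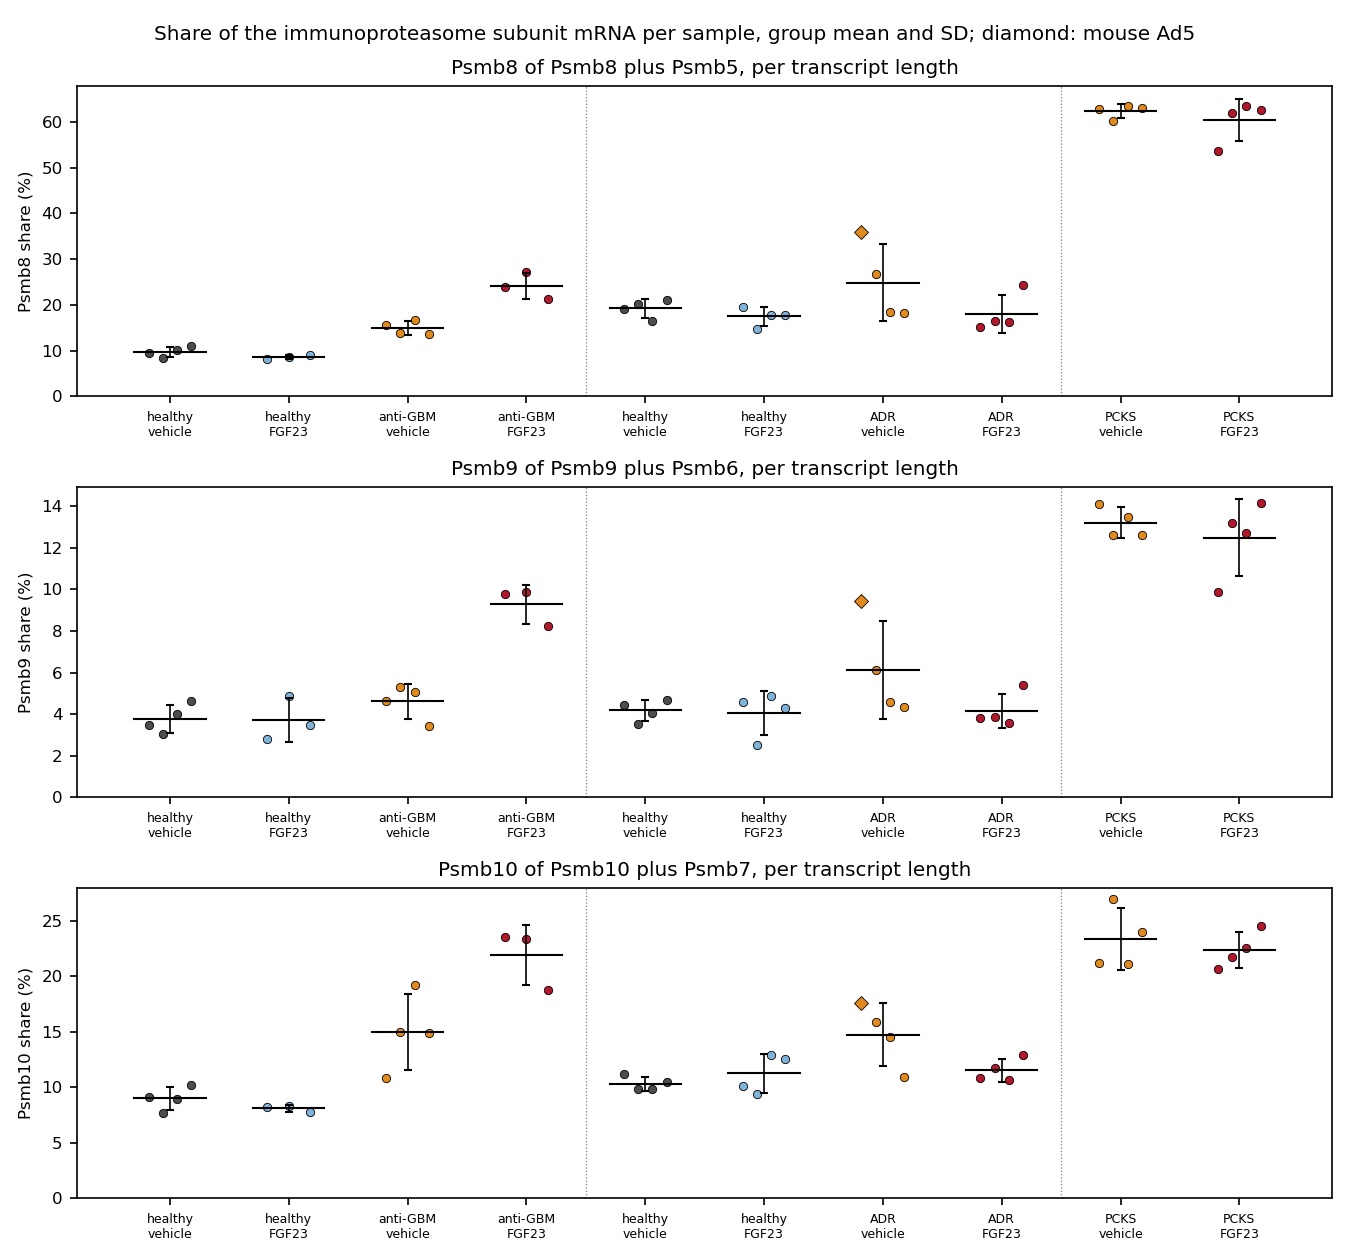
Share in percent of the immuno-subunit in its pair with the constitutive subunit, per kilobase of transcript (vertical axis), by group, one point per library with the mean and SD. Psmb8 moves from 9.73% in healthy to 24.1% in FGF23-treated anti-GBM kidneys and stands at 62.3% in the vehicle slices. That majority in the slices does not hold with the exon union length.

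Among the partners of the 10 genes in peptide trimming and class I assembly, 3 of 6 were called in anti-GBM disease with vehicle, beside 39.8% of all genes. There Calr (0.36 (SE 0.12)), a chaperone of the loading complex, and Tapbpl (0.24 (SE 0.093)), which edits peptides, rose, and the endosomal trimming enzyme Lnpep fell (-0.56 (SE 0.13)). Erap1, which trims peptides in the endoplasmic reticulum, was at 0.024 (SE 0.10) with an edgeR adjusted p of 0.868. Of 10 class I heavy chain genes tested, 4 rose, beside 19.4% of all genes, with H2-K1 at 1.07 (SE 0.10), H2-D1 at 0.90 (SE 0.081), H2-M3 at 0.50 (SE 0.17) and H2-Q4 at 0.38 (SE 0.12). Reads of this gene family can be split between near-identical copies, so single values are uncertain. The proteasome activator Psme4 fell (-0.50 (SE 0.11)) and Psme3 was at 0.08 (SE 0.064). Among 5 assembly chaperones Psmg4 rose (0.43 (SE 0.15)), and Pomp, which is needed for the immunoproteasome, was at 0.12 (SE 0.10) without a call.

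Irf1, a transcription factor that carries the interferon-gamma signal to these promoters, was at 0.22 (SE 0.14) in anti-GBM disease with vehicle, and none of 5 regulators was called. There 39.8% of all genes were called in either direction. In the FGF23 comparison in anti-GBM mice Irf1 was at 1.24 (SE 0.15) and was the 1 of the 5 regulators among the called genes, while the 10 heavy chain genes had 0 calls and were all above 0 (H2-K1 0.37, H2-D1 0.30). Of all genes, 0.240% were called there. In healthy mice FGF23 gave Irf1 -0.087 (SE 0.15). This gene was picked with the FGF23 result known as well, so its values are a description.

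Leukocyte markers moved with the disease. The summed level of 15 markers of leukocytes was 118, 117, 99.1 and 116 CPM in the healthy mice with vehicle and 239.5, 279.9, 176 and 178 CPM in the anti-GBM mice with vehicle. It was 124, 99.3 and 150.2 CPM in healthy mice and 265, 274 and 258 CPM in anti-GBM mice given FGF23. The diseased groups stood above the healthy groups, and overlapped with each other in this sum, most of which came from 4 macrophage genes. Ptprc, the pan-leukocyte gene, was apart from it, at 30.8, 28.4, 22.6 and 12.9 CPM in anti-GBM mice with vehicle and at 35.4, 38.9 and 33.8 CPM in those given FGF23, so that every FGF23 mouse was above every vehicle mouse. Such a separation in that direction held for 5.11% of all genes. Of 12 markers tested, 6 rose and 0 fell in disease with vehicle, where 19.4% of all genes were called higher and 39.8% in either direction. Among the 6 were Ptprc (log2 fold change 0.73 (SE 0.22)) and the macrophage gene Adgre1 (1.26 (SE 0.26)). In the FGF23 comparison in anti-GBM mice 0 of 12 were called, where 0.240% of all genes were. Of the 12, 11 were above 0, with Ptprc at 0.60 (SE 0.23) and Adgre1 at 0.49 (SE 0.26). The summed T cell markers were 4.32 to 10.4 CPM in anti-GBM mice with vehicle and 10.3 to 11.4 CPM with FGF23. Kidney markers summed to 13637 to 15224 CPM in healthy and 9871 to 12189.5 CPM in anti-GBM mice with vehicle. What part these shifts in cell content have in the levels of the 10 genes was not tested.

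**Figure D4:**
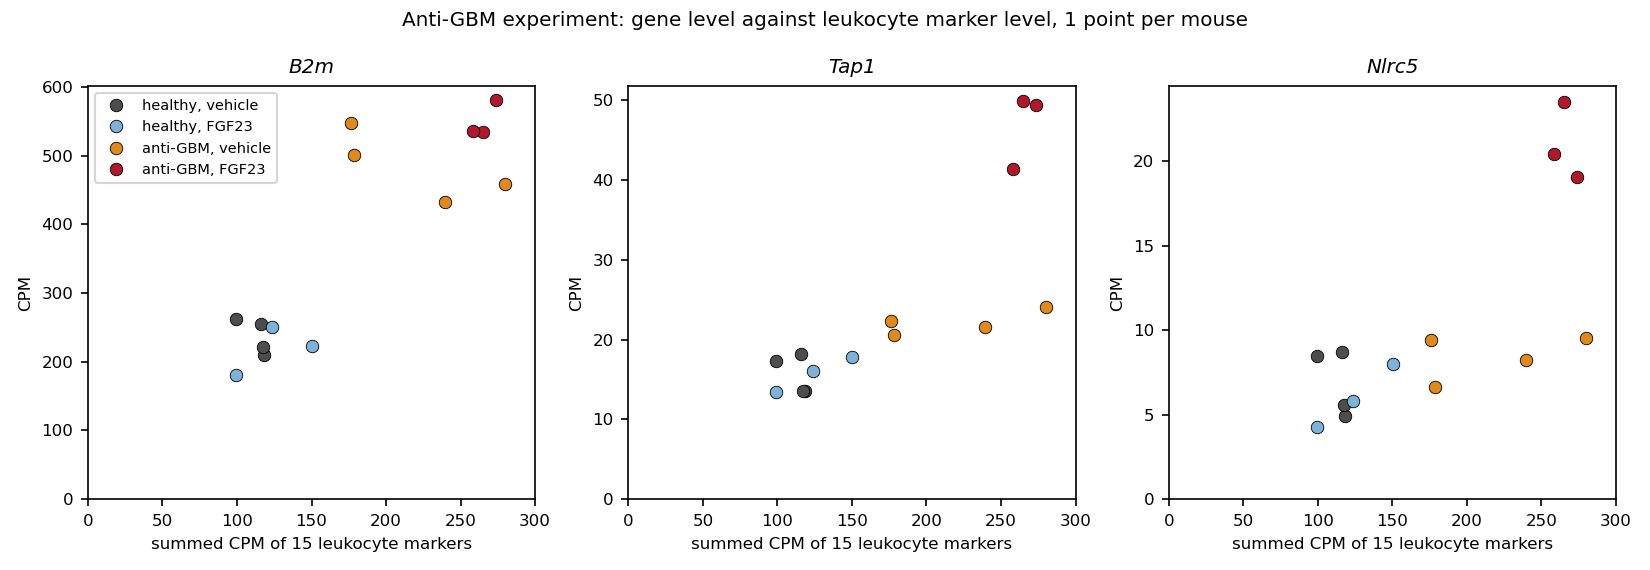
Summed CPM of the 15 leukocyte markers (horizontal axis) against CPM of the genes named on the panels (vertical axis) in the 14 mice of the anti-GBM experiment, one point per mouse, coloured by group. The 3 FGF23 anti-GBM mice lie at marker sums of 258 to 274, within the 176 to 279.9 of the anti-GBM mice given vehicle, and most of the sum comes from macrophage genes. The sum is no measure of equal leukocyte content. Ptprc alone was at 33.8 to 38.9 CPM with FGF23 and 12.9 to 30.8 CPM with vehicle, and 11 of 12 markers tested were above 0.

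In Adriamycin nephropathy the genes did not pass the test. Between Adriamycin and healthy BALB/c mice given vehicle, 0 of the 10 genes were called by edgeR, where 0.331% of all genes were, although all 10 had log2 fold changes above 0 (median 0.42) and 9 an unadjusted p below 0.05. DESeq2 called 1 of them, Psmb10. For 4 genes, Psmb9, Psme2, Tap1 and B2m, all diseased mice lay above all healthy mice, as did 2.84% of all genes. Psmb10 had 13.2, 11.3, 11.4 and 12.1 CPM in healthy and 23.1, 18.3, 17.3 and 13.2 CPM in Adriamycin mice (log2 fold change 0.58 (SE 0.14), edgeR adjusted p = 0.104). Tap1 had 12.3, 13, 13 and 13.5 CPM and 32.1, 16.9, 14.1 and 14 CPM (0.58 (SE 0.23), edgeR adjusted p = 0.489). Psmb8 had 13.5, 11.6, 10.5 and 13.7 CPM and 28.2, 18, 13.1 and 12.6 CPM (0.54 (SE 0.22), edgeR adjusted p = 0.495). In each the first Adriamycin mouse, Ad5, was the highest.

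Mouse Ad5 was the highest of its group for all 10 genes. Nlrc5 had 5.09, 3.67, 3.77 and 3.56 CPM in healthy and 10.2, 7.02, 4.26 and 3.76 CPM in Adriamycin mice (0.65 (SE 0.27)), and Psmb9 had 7.58, 5.50, 6.61 and 7.41 CPM and 17.4, 10.1, 7.66 and 7.81 CPM (0.67 (SE 0.26)). B2m had 240.3, 214, 223 and 228 CPM and 348, 263, 240.5 and 247 CPM (0.28 (SE 0.13)). Without Ad5 the median log2 fold change of the 10 genes was 0.18, with Tap1 at 0.21, Psmb8 at 0.24 and Psmb10 at 0.44, and all 10 remained above 0. Its leukocyte marker sum of 125 CPM was not the highest, as Ad6 had 161.7 CPM and the healthy mice with vehicle 143.5 to 190.6 CPM. Of the 12 leukocyte markers tested 0 were called, beside 0.331% of all genes, and 3 were above 0. In 3 of the 4 diseased mice the marker sum was below those of all healthy mice with vehicle. Most of that sum was Csf1r, with a mean of 122.3 CPM in healthy and 87.8 CPM in Adriamycin mice with vehicle. Ptprc was at 10.5 and 10.6 CPM, C1qa at 14.9 and 15.4 CPM, and Adgre1 at 4.66 and 4.36 CPM. The fall in the sum is thus mainly that of 1 gene.

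A single FGF23 injection gave no call in BALB/c mice. In Adriamycin mice 0 of the 10 genes were called, with 0.0375% of all genes called, and all 10 log2 fold changes were below 0 with a median of -0.27. Psmb8 had 10.01, 11.2, 10.7 and 15.8 CPM after FGF23, a log2 fold change of -0.60 (SE 0.22) with an edgeR adjusted p of 0.825. Psmb10 had 12.6, 14.6, 13.3 and 15.8 CPM (-0.36 (SE 0.14), edgeR adjusted p = 0.825). Psme1 had 58.4, 59.5, 62.7 and 59.5 CPM (-0.16 (SE 0.056), edgeR adjusted p = 0.772). These were the 3 genes with an unadjusted p below 0.05, and each overlapped with the vehicle group. Tap1 had 11.3, 12.8, 13.5 and 19.7 CPM and Nlrc5 4.15, 4.35, 5.33 and 6.75 CPM, with log2 fold changes of -0.44 (SE 0.23) and -0.31 (SE 0.27). Mouse Ad16 was the highest of its group for both. Without mouse Ad5 of the vehicle group the median was -0.06, with Tap1 at -0.067 and Nlrc5 at 0.029.

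In healthy BALB/c mice FGF23 gave 0 calls among the 10 genes and among all genes (0%), 0 unadjusted p below 0.05 and a median log2 fold change of 0.05. Tap1 had 15, 13.4, 10.1 and 15.5 CPM, Psmb9 7.96, 7.93, 3.83 and 8.43 CPM and Nlrc5 4.43, 5.31, 3.02 and 4.95 CPM, and mouse Ad11 was the lowest for all of these. The 95% intervals of the 10 genes reached from -0.53 (Psmb8) to 0.73 (Nlrc5). The interaction of FGF23 with Adriamycin had 0 calls (0% of all genes), a median of -0.37 and 1 gene with an unadjusted p below 0.05, Psmb10 at -0.49 (SE 0.19) (edgeR adjusted p = 0.967), and without mouse Ad5 its median was -0.12. Adriamycin against health among mice given FGF23, which shares its samples with these, had 0 calls (0.699% of all genes) and a median of 0.08. None of the lists of other proteasome subunits, loading partners, heavy chains or regulators had a call in the 5 comparisons of this experiment.

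The FGF23 effect of the anti-GBM experiment and that of the Adriamycin experiment differ in strain, sex, disease, number of injections and days of exposure, so their values can only stand side by side. For Tap1 they were 1.08 (SE 0.12) and -0.44 (SE 0.23), for Psmb8 0.67 (SE 0.093) and -0.60 (SE 0.22), and for Nlrc5 1.31 (SE 0.22) and -0.31 (SE 0.27). Without mouse Ad5 the Adriamycin values were -0.067 for Tap1, -0.29 for Psmb8 and 0.029 for Nlrc5, so that the sign of Nlrc5 rested on that mouse.

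In kidney slices FGF23 gave no call either. Of the 10 genes 0 were called, as was 0% of all genes, and 0 had an unadjusted p below 0.05. Psmb8 had 91.9, 95.2, 90.4 and 88.4 CPM in the 4 vehicle slices and 79.4, 81.4, 100.5 and 80.2 CPM in the 4 FGF23 slices (-0.10 (SE 0.089), edgeR adjusted p = 0.86). Tap1 had 100.3, 92.1, 98.2 and 90.3 CPM and 73.2, 99.9, 105 and 94.8 CPM (-0.03 (SE 0.11)). Nlrc5 had 25.6, 29.8, 27.8 and 29 CPM and 23.7, 27.4, 24.6 and 30.5 CPM (-0.079 (SE 0.10)). All 3 overlapped between the groups, and FGF23 slice 3F was apart for Psmb8 while slice 1F was the lowest for Tap1. B2m had 999.9, 812, 984 and 866 CPM and 762, 833, 837 and 850.4 CPM (-0.16 (SE 0.10), edgeR adjusted p = 0.849). Psmb10 had 23.3, 34, 21.8 and 27.2 CPM and 24.1, 22.3, 25.2 and 24.1 CPM (-0.16 (SE 0.14)). The median over the 10 genes was -0.06, 2 were above 0, and the 95% intervals reached from -0.46 (Psmb10) to 0.28 (Psme1). These intervals take the 4 slices of a group as independent, as the study states. Slices 1V and 3V had closer counts (chi-square per degree of freedom 2.91) than most, as did 2F and 4F (2.02). The other pairs within a slice group had 9.17 to 39.03. The sample titles do not name the kidney of a slice, and a shared kidney would make the intervals too narrow. Leukocyte markers summed to 404.4 to 506.2 CPM in vehicle and 343.1 to 488.8 CPM in FGF23 slices.

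**Figure D5:**
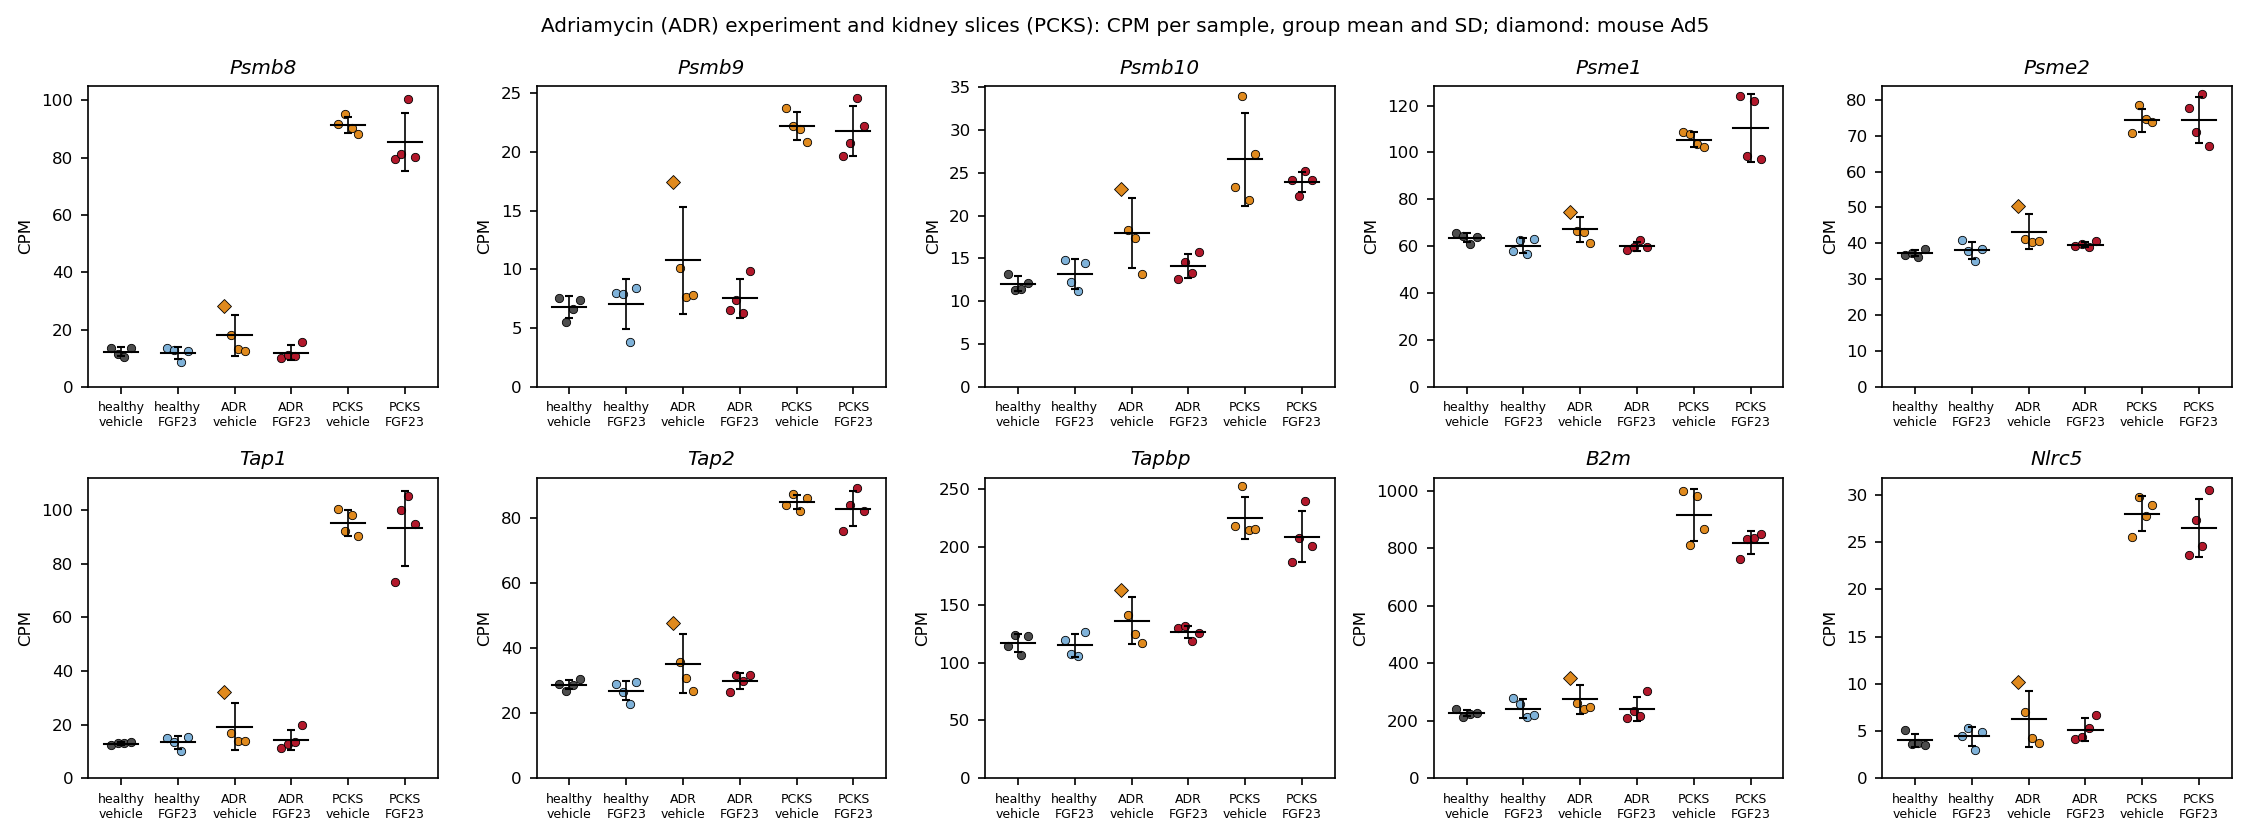
Level of each gene in CPM (vertical axis, own linear scale per panel) in the 4 groups of the Adriamycin experiment and the 2 groups of kidney slices, one point per library with the mean and SD. Mouse Ad5 is the high point of the Adriamycin vehicle group, with Tap1 at 32.1 CPM and the next mouse at 16.9 CPM, and the slices overlap in every panel.

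The 10 genes varied together to different degrees within groups. Over the 38 libraries, with each group's mean taken out, Psmb9 and Tap1 had a Pearson correlation of 0.874 and Psmb8 with Psmb9 and with Tap1 0.872 each, whereas Psme1 and B2m had 0.0666. The points share library and depth, and Psmb9 and Tap1 share annotated bases. The genes outside the set whose log2 CPM was most like the mean of the 10, among 12912 genes and with each experiment's mean taken out, were H2-DMa (0.952), H2-Ab1 (0.942), H2-K1 (0.941), H2-D1 (0.937) and H2-DMb2 (0.931). Unlike the correlations within groups above, these values still contain the differences between the groups of an experiment. H2-K1 and H2-D1 are class I heavy chains, and the others belong to class II antigen presentation. Within the 8 slices alone the values were 0.00377 for H2-DMa, -0.686 for H2-Ab1, 0.4 for H2-K1, 0.363 for H2-D1 and 0.238 for H2-DMb2, lower than in either kidney experiment.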

How the data were processed

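Bulk RNA-Seq libraries of mouse kidneys and kidney slices were sequenced from a stranded mRNA kit. Per the labels and the study's methods, the authors used bcl2fastq 2.20.0 and FastQC 0.11.8, mapped reads with STAR 2.7.9a (build GRCm38), counted them per gene with featureCounts 1.5.1 on Ensembl annotation, and deposited raw read counts for 55487 genes, without normalization or filter. Symbols were matched for 55141 of them. Columns not used numbered 0. Slice columns were assigned by name, which matches the labels and the treatment row of the study's supplementary header. A short group code in that header does not match them. Kidney column names hold no group, so their groups were read from the headers of the study's supplementary tables, whose group sizes are those of the labels. There the column that ends in NTS4 a second time is mouse NTS14.

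Counts were analysed in R 4.3.3 with edgeR 4.0.16: TMM scaling, filterByExpr with a minimum count of 10, 1 quasi-likelihood fit per experiment with a mean per group, and Benjamini-Hochberg adjustment over all genes of a comparison. Genes were called at an adjusted p below 0.05, without a fold limit. Standard errors follow from the fold change and its F value. The test was checked on simulated counts. Lengths are those of principal transcripts of GENCODE M21.

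The 10 genes, the other lists and the rule for further names were chosen with earlier results of these data known. The rule names all 10 genes, a set of partner genes, regulators and leukocyte markers, up to 4 called genes of each other list with the smallest p, and the 5 most similar genes. A few genes of the lists are not reported here and were left out of the counts and sums of their lists. Alternatives were DESeq2 1.42.0, RLE scaling, no filter or at least 10 counts in every library, other thresholds, adjustment over FGF23 comparisons combined, only the groups compared, the slice number as a block, and each library left out in turn. The use of the exon union length for the subunit shares was added after the data were seen.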

Additional observations from a re-analysis of the deposited data

Results flagged for a closer look

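Single libraries stood apart from the rest of their group for 7 of 80 combinations of a gene and a group of 4, where chance alone marks about 1 in 20. In Adriamycin mice with vehicle, Ad5 had 32.1 CPM of Tap1 against at most 16.9 in the other 3, and 50.5 CPM of Psme2 against 40.4 to 41.3. In healthy BALB/c mice, Ad1 had 5.09 CPM of Nlrc5 with vehicle against 3.56 to 3.77, and Ad11 had 3.83 CPM of Psmb9 with FGF23 against 7.93 to 8.43. In healthy C57BL/6JRj mice with vehicle, NTS2 had 22.7 CPM of Tap2 against 27.6 to 28.4. Among the slices, 3F with FGF23 had 100.5 CPM of Psmb8 against 79.4 to 81.4, and 2V with vehicle had 253 CPM of Tapbp against 214 to 218.

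Opposite directions of FGF23 were seen in 12 of 100 pairs of comparisons and genes: every treated library lay above the mean of its vehicle group in one and below it in the other. The difference itself was not tested, since the experiments are separate fits or the genes were chosen with the comparison known. How often all genes meet this rule is not given here, so whether 12 of 100 is unusual cannot be told. Every flagged pair except Tapbp between healthy C57BL/6JRj and Adriamycin mice included the FGF23 comparison in anti-GBM mice, known when the genes were chosen. Between anti-GBM and Adriamycin mice the log2 fold changes differed by 1.27 for Psmb8, 1.41 for Psmb9, 0.85 for Psmb10, 0.34 for Psme1, 0.21 for Psme2, 0.75 for Tap2 and 0.34 for Tapbp. The Adriamycin values were nearer to 0 without mouse Ad5, at -0.29 for Psmb8, -0.18 for Psmb9, -0.21 for Psmb10, -0.10 for Psme1, -0.036 for Psme2, -0.056 for Tap2 and -0.0071 for Tapbp. For Psmb10 the difference was 0.62 between anti-GBM and healthy mice of the same experiment and 0.65 between anti-GBM mice and slices. It was 0.25 for Psme1 between anti-GBM and healthy BALB/c mice, 0.17 for Tapbp between healthy C57BL/6JRj and Adriamycin mice, and 0.34 for B2m between anti-GBM mice and slices.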

How the results depend on the processing

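The 0 calls of each FGF23 comparison in healthy mice, Adriamycin mice and slices kept their number under all alternatives run. The 10 calls in anti-GBM disease with FGF23 became 7 with an absolute log2 fold change above 1 and stayed 10 in number otherwise. The 9 calls of anti-GBM disease with vehicle became 1 with an absolute log2 fold change above 1, and 8 to 9 with a mouse left out. The 5 genes called in the FGF23 comparison in anti-GBM mice became 3 with adjustment over the FGF23 comparisons combined, 2 with an absolute log2 fold change above 1, 2 in a fit of only the groups compared and 2 to 5 with a mouse left out. The interaction, with 0, gave 1 with combined adjustment, 2 at an adjusted p below 0.1, 3 with DESeq2, 3 with no filter and 0 to 2 with a mouse left out, the 2 without NTS16. Adriamycin disease with vehicle, with 0, gave 1 with DESeq2, 1 with no filter and 0 to 1 with a mouse left out, the 1 without Ad8.

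Values near 0 changed sign. They were Psmb8 in Adriamycin disease with FGF23 (0.0054 with DESeq2), Psmb9 with FGF23 in healthy C57BL/6JRj mice (0.010 with at least 10 counts in every library, 0.0019 with DESeq2, 0.0071 with no filter, 0.0089 with only the groups compared, 0.0062 with RLE), and Tap2 there (0.0099, 0.0023, 0.0063, 0.0078 and 0.0043 in the same order). Psme2 in the slices was -0.0041 with no filter and -0.0019 with the replicate block.

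With single libraries left out, further values crossed 0, given as lowest to highest log2 fold change. In Adriamycin disease with FGF23 this held for B2m (-0.14 to 0.064), Psmb8 (-0.15 to 0.071), Psmb9 (-0.11 to 0.18), Psme1 (-0.030 to 0.020), Tap1 (-0.10 to 0.18). In FGF23 in Adriamycin mice this held for Nlrc5 (-0.48 to 0.029). In FGF23 in healthy BALB/c mice this held for Psmb8 (-0.12 to 0.067), Psmb9 (-0.034 to 0.26), Tap1 (-0.0073 to 0.17), Tapbp (-0.074 to 0.013). In FGF23 in healthy C57BL/6JRj mice this held for Psmb9 (-0.15 to 0.17), Psme1 (-0.0030 to 0.075), Psme2 (-0.055 to 0.055), Tap1 (-0.076 to 0.11), Tap2 (-0.067 to 0.037). In the slices this held for Psmb9 (-0.088 to 0.021), Psme2 (-0.046 to 0.046), Tap1 (-0.092 to 0.071), Tap2 (-0.074 to 0.0023). In the anti-GBM interaction this held for Psme2 (-0.0031 to 0.17). In the Adriamycin interaction this held for Tap2 (-0.25 to 0.036), Tapbp (-0.15 to 0.017).

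Labels number the slices 1 to 4 in both groups. Deviations of equally numbered slices from their group means correlated at 0.107, 0.105, -0.105 and 0.112, so the numbers were not taken as pairs, and with the number as a replicate block 0 genes were called, as without it. The exon union length in place of the transcript length moved 23 of 30 subunit shares by more than 1 SD and left the ratios between groups as they were. The 10 genes had at least 56 counts in every library, and group sizes of 3 or 4 leave the intervals as wide as given.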
